A study of Mus musculus with 18 samples.

Results

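Cells make cholesterol from acetyl-CoA through the mevalonate pathway, and they make long-chain fatty acids from the same precursor through acetyl-CoA carboxylase and fatty acid synthase. The transcription factors encoded by Srebf2 and Srebf1 activate these genes when sterols in the endoplasmic reticulum are low, and Insig1 holds their precursors there when sterols are plentiful. In the liver, hepatic stellate cells (HSC) are pericytes that store retinyl esters in lipid droplets and turn into matrix-forming myofibroblasts in culture. The genes followed here are 31 genes of sterol and fatty acid synthesis and its control, chosen by name. All 31 were found among the 35667 genes of the deposited table, and all 31 passed the low-count filter in every comparison. They comprised 8 genes of the mevalonate arm, 11 genes from squalene to cholesterol, 5 regulators and sterol carriers, and 7 fatty acid enzymes.

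RNA was sequenced in bulk from 18 mouse libraries, 3 in each of 6 groups. HSC from healthy wild-type mice were co-cultured in Matrigel with intrahepatic cholangiocyte organoids (ICO) for 7 days, grown alone in Matrigel for 7 days, grown on plastic for 7 days, or taken at day 0 directly after isolation. ICO, organoids of bile duct epithelium that carry the fluorescent protein dTomato, were co-cultured with HSC in Matrigel for 7 days or grown alone in Matrigel for 7 days. The Matrigel cultures were sorted after 7 days, and the labels name 1 growth medium for all samples, an equal mix of serum-containing DMEM and AdvDMEM/F12, the second part with N2 and B27, growth factors (EGF, HGF, FGF10), RSPO3, gastrin and other supplements. Whether the 3 libraries of a group stem from different animals or cultures is not stated in the labels. The p-values therefore reflect spread among these libraries, possibly technical. In bulk RNA, fewer cells of a type and less RNA per cell cannot be told apart.

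Total counts ranged from 6907479 to 22158674 per library. Levels are given as CPM, counts scaled to the library size, and a change is the fitted log2 fold change ± its standard error (SE), with p-values from edgeR's quasi-likelihood test adjusted by the Benjamini-Hochberg method at 0.05. Called members are quoted because they passed this test, so separation of their groups adds no further support. The share of all genes without overlap between groups was not counted. Stellate markers were present in the HSC libraries and almost absent from ICO: the matrix proteoglycan Dcn had 3857 to 53441 CPM in HSC libraries and 0 to 34.9 CPM in ICO libraries. Cholangiocyte transcripts were measurable in HSC from Matrigel, also in those grown without organoids, and their source was not tested. The cholangiocyte share, the median over 15 cholangiocyte genes of a library's level over the mean ICO level, was 28.0%, 15.9% and 42.1% in co-cultured HSC, 34.3%, 13.4% and 2.96% in HSC alone in Matrigel, and at most 0.254% on plastic and at day 0. Single genes did not all follow it: in HSC alone in Matrigel the adhesion molecule Epcam ran from 39.5 to 374 CPM, and the transcription factor Sox9 from 50.6 to 58.0 CPM. The summed level of 16 macrophage markers was 278 to 431 CPM in co-cultured HSC, 2779 to 3603 CPM in HSC alone in Matrigel, 140 to 591 CPM on plastic and 987 to 1047 CPM at day 0. It was 506 to 640 CPM in co-cultured ICO and 538 to 564 CPM in ICO alone, where the macrophage marker Adgre1 was at most 0.356 CPM. How much of this sum in HSC libraries is macrophage RNA was not tested. The summed level of 22 hepatocyte markers was 28022 to 29042 CPM at day 0 and at most 326 CPM in every other HSC library. In co-cultured HSC the members took 0.370% to 0.403% of all counts, against 0.238% to 0.353% in HSC alone in Matrigel, while they took 0.317% to 0.353% in co-cultured ICO, against 0.397% to 0.452% in ICO alone.

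A set of 9 members was higher in co-cultured HSC and lower in co-cultured ICO. Of all genes tested, 17.3% were higher in HSC and 7.96% lower in ICO, and the share with both was not counted. The promoters of 4 of the 9 are shown, chosen because they hold a CCAAT box in the 150 bases before the start. That box is a site of the factor NF-Y, which works beside SREBP at sterol genes. Of the 9, 7 have a promoter entry, and the other 3 of these, Acat2, Acly and Elovl6, hold no CCAAT in those 150 bases. A RefSeq promoter of build GRCm38.p6 was found for 25 of the 31 members. CCAAT, read on both strands from 250 bases before to 50 bases after the start, occurred in 22 of the 25, against 41.1% of the 27025 genes with an entry. GGGCGG, the Sp1 box, occurred in 20 of the 25, against 38.2%. TCACNCCAC, 1 form of the sterol element, occurred in 1 of the 25, Hmgcs1, against 1.44%. Its shortened forms TCACNCCA and CACNCCAC, which overlap it, occurred in 3 of the 25 each, against 4.97% and 7.12%. No expression filter was applied to the 27025 genes, whereas all members passed the low-count filter. The motif shares among expressed genes alone were not counted. All 5 motifs were tried with the expression results known, and a match is not evidence of binding. Other forms of the sterol element were not searched, so a promoter without a match may still hold one. The lines below give the 150 bases before the start, 5′ to 3′, with CCAAT in capitals, as is TCACNCCAC, and with ATTGG where the box lies on the other strand, for Hmgcs1 at chr13:119690201-119690350 (plus strand), Cyp51 at chr5:4104698-4104847 (minus strand), Nsdhl at chrX:72918371-72918520 (plus strand) and Hsd17b7 at chr1:169969206-169969355 (minus strand). For Hmgcs1 and Nsdhl the bases after the RefSeq start were not found in the GENCODE transcripts, so the start may differ between annotations.
Hmgcs1: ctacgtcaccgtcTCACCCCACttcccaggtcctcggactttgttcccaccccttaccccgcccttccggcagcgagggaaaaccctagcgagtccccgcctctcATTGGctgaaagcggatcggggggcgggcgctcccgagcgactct
Cyp51: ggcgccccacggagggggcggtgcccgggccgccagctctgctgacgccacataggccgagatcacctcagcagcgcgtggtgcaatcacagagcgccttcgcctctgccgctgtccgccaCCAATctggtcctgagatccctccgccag
Nsdhl: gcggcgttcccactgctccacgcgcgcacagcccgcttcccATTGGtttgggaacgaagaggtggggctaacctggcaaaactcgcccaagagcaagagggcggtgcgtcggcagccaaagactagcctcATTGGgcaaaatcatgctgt
Hsd17b7: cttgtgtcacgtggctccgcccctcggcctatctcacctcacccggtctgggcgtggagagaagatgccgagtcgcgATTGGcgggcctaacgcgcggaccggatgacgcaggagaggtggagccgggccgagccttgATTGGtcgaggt

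The first comparison asked how co-culture with organoids altered HSC. In co-cultured HSC, 12 of the 31 members rose and 0 fell. Across all 17020 genes tested, 31.1% were called, 17.3% higher and 13.8% lower. The median change of the members was 0.30 (log2), against 0.03 over all genes. At an unadjusted p under 0.05, edgeR gave 0 lower members, and DESeq2 gave 0 at an adjusted p under 0.05. The higher members were Acat2, Hmgcs1, Mvd and Fdps of the mevalonate arm, Fdft1, Cyp51, Nsdhl and Hsd17b7 of the sterol arm, and Acly, Elovl6, Scd1 and Scd2 of the fatty acid enzymes. None of the 5 regulators and sterol carriers passed the test.

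Scd1, a stearoyl-CoA desaturase that makes monounsaturated fatty acids, had 248, 395 and 240 CPM in co-cultured HSC, against 58.7, 16.4 and 122 CPM in HSC alone in Matrigel. The groups did not overlap, but the libraries of HSC alone were widely spread. Scd1 rose by 2.20 ± 0.55 (log2, adjusted p = 0.0134), and by 3.03 without replicate 3 of HSC alone. Scd2, its paralog, had 705, 888 and 781 CPM in co-culture, against 482, 316 and 308 CPM alone. It rose by 1.15 ± 0.16 (adjusted p = 0.000148), with no overlap between groups. Cyp51, the lanosterol demethylase, had 125, 174 and 139 CPM in co-culture, against 97.8, 56.7 and 59.0 CPM alone. Its rise was 1.08 ± 0.19 (adjusted p = 0.000642), again with no overlap. Elovl6, the elongase of palmitate, had 23.0, 33.5 and 19.7 CPM in co-culture, against 20.8, 10.0 and 12.2 CPM alone. The lowest co-culture library lay below the highest of HSC alone, and the fitted rise was 0.88 ± 0.25 (adjusted p = 0.0169), a call lost under 4 of 13 alternatives.

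Among the remaining higher members, Fdft1 (squalene synthase) had a mean of 148 ± 4.35 CPM in co-cultured HSC and 88.8 ± 31.8 CPM alone (SD, n = 3 each), a rise of 0.79 ± 0.18 (adjusted p = 0.00486). The changes of the other 7 ranged from 0.39 for Nsdhl to 0.76 for Acat2. The calls of Hmgcs1 and Nsdhl were lost under 7 of 13 alternatives each, and that of Mvd under 6. Fasn, fatty acid synthase, had 84.5, 99.6 and 90.3 CPM in co-culture, against 87.0, 63.2 and 73.9 CPM alone, a value of 0.34 ± 0.13 that missed the threshold (adjusted p = 0.0581). With a fit of the 6 compared libraries alone, which has fewer samples, 3 members were called, Fdft1, Cyp51 and Scd2. These 3 were called under every alternative run. Leaving out replicate 2 or replicate 3 of HSC alone left 5 and 6 higher members. Without co-culture replicate 2, 7 were higher and 1 was lower, Ggps1 at -0.41 (adjusted p = 0.0427), a gene named after its value was seen. Without replicate 1 of HSC alone, which had the largest cholangiocyte share of its group, 16 were higher. Members are also expressed in ICO. The cholangiocyte share times the ICO level, a product that takes 1 share for every gene, came to 63.5%, 42.8% and 9.06% of the Cyp51 level in the 3 libraries of HSC alone and to 27.2%, 11.1% and 36.7% in co-cultured HSC. For Scd1 the corresponding values were at most 7.66%. After the cholangiocyte share was subtracted from each Matrigel library of HSC, 14 members were higher, with Cyp51 at 1.70 and Scd1 at 2.47. The amount subtracted used the ICO level of the same culture, co-culture or alone. For members lower in co-cultured ICO it therefore took less per unit of share from co-cultured HSC. These values are not independent of the ICO result. With the share as a covariate, 9 were higher. The part of the macrophage marker sum, which moved with co-culture, was not tested.

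**Figure D1:**
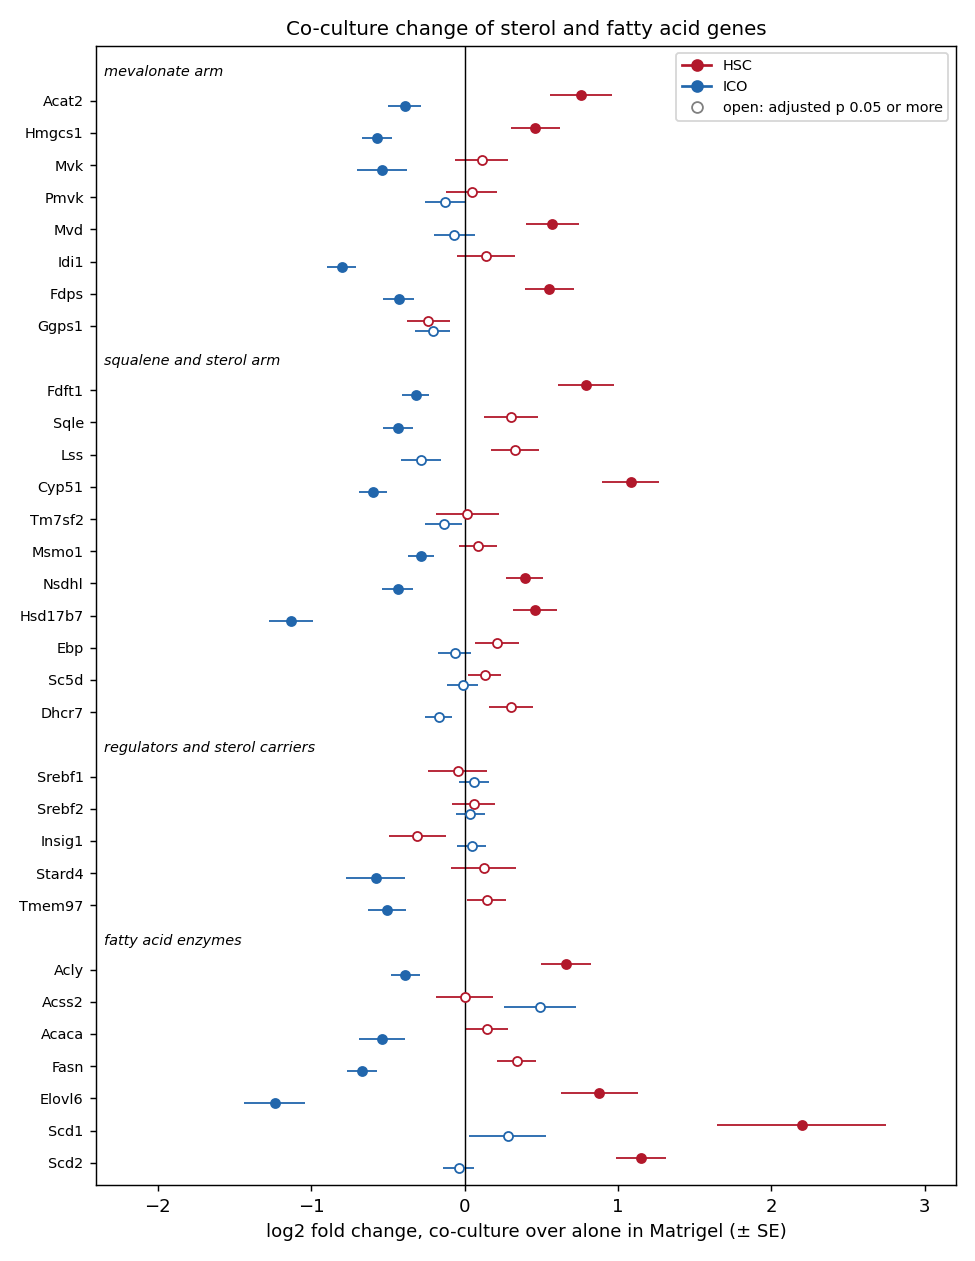
Fitted log2 fold change of the 31 members, co-culture over alone in Matrigel, with bars for the SE, in HSC (red) and ICO (blue), grouped by role; filled points have an adjusted p under 0.05. The 12 filled HSC points lie right of 0 and the 17 filled ICO points lie left of 0.

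The second comparison asked the same of the organoids. In co-cultured ICO, 17 of the 31 members fell and 0 rose. Across the 13726 genes tested, 16.6% were called, 8.59% higher and 7.96% lower. The members' median was -0.32 (log2), against 0.00 over all genes. At an unadjusted p under 0.05 edgeR gave 0 higher members, and DESeq2 gave 0 at an adjusted p under 0.05. The mevalonate arm had 5 of 8 members lower, the sterol arm 6 of 11, the regulators and carriers 2 of 5, and the fatty acid enzymes 4 of 7.

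Elovl6 had 8.87, 8.57 and 9.79 CPM in co-cultured ICO, against 26.7, 21.7 and 15.4 CPM in ICO alone. All 3 co-culture libraries were below all 3 others, and it fell by 1.24 ± 0.20 (log2; adjusted p = 0.000265). Hsd17b7, a sterol ketoreductase, had 15.8, 16.2 and 14.5 CPM in co-culture, against 37.9, 31.5 and 31.1 CPM alone. It fell by 1.13 ± 0.14 (adjusted p = 2.95e-05), with no overlap. Idi1, the isopentenyl diphosphate isomerase, had 130, 151 and 139 CPM in co-culture, against 271, 232 and 221 CPM alone. Its change was -0.80 ± 0.10 (adjusted p = 1.94e-05), without overlap. Fasn had 58.9, 51.4 and 62.5 CPM in co-culture, against 95.4, 86.7 and 90.5 CPM alone. It dropped by 0.67 ± 0.10 (adjusted p = 0.000123), and again the groups were separate.

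The other 13 lower members had values from -0.60 for Cyp51 to -0.29 for Msmo1. Both sterol carriers were among them, Stard4 at -0.58 ± 0.19 (adjusted p = 0.0454) and Tmem97, a sterol-binding membrane protein, at -0.50 ± 0.12 (adjusted p = 0.00848). The calls of Stard4 and Msmo1 were lost under 5 of 10 alternatives each, at an adjusted p of up to 0.198 and 0.119, and that of Tmem97 under 2. The desaturases did not pass: Scd1 was at 16.4, 9.13 and 8.89 CPM in co-culture, against 7.13, 11.4 and 9.56 CPM alone, and Scd2 at 687, 615 and 673 CPM, against 698, 719 and 591 CPM. Without replicate 1 of ICO alone 8 members were lower, and without co-culture replicate 1 there were 10. In ICO the stellate markers were low in both cultures, with a sum of 72.4 to 135 CPM in co-culture and 19.0 to 64.4 CPM alone, against at least 12302 CPM in every HSC library.

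The interaction contrast, HSC minus ICO, tested whether the effects of co-culture differed between the cell types. For 12 members the difference was higher in HSC, and for 0 it was lower (by edgeR, 0 also at an unadjusted p under 0.05, and 0 by DESeq2 after adjustment). Of 16233 genes 17.2% were called, 9.08% higher and 8.08% lower, and the members' median was 0.59 against 0.01. Acat2, Hmgcs1, Fdps, Fdft1, Cyp51, Nsdhl, Hsd17b7, Acly and Elovl6 were called in HSC (higher), in ICO (lower) and for the difference. Acaca, Fasn and Scd2 completed the 12. The share of all genes called higher in HSC, lower in ICO and for the difference was not counted.

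The difference was 2.03 ± 0.40 for Elovl6 (adjusted p = 0.00428), 1.59 ± 0.26 for Cyp51 (adjusted p = 0.00138), 1.50 ± 0.20 for Hsd17b7 (adjusted p = 0.000425) and 1.10 ± 0.23 for Scd2 (adjusted p = 0.0062). Acaca, acetyl-CoA carboxylase, was at 0.59 ± 0.18 (adjusted p = 0.0434) and lost its call under 13 of 17 alternatives. Scd1 had a difference of 1.84 ± 0.84 that edgeR did not call (adjusted p = 0.174). DESeq2 called it at 1.82 (adjusted p = 0.048), and edgeR did without replicate 3 of HSC alone, at 2.65 (adjusted p = 0.0232). With the cholangiocyte share subtracted, the difference for Cyp51 was 2.23. The subtracted amounts come from the ICO levels, so this value uses the ICO change again.

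**Figure D2:**
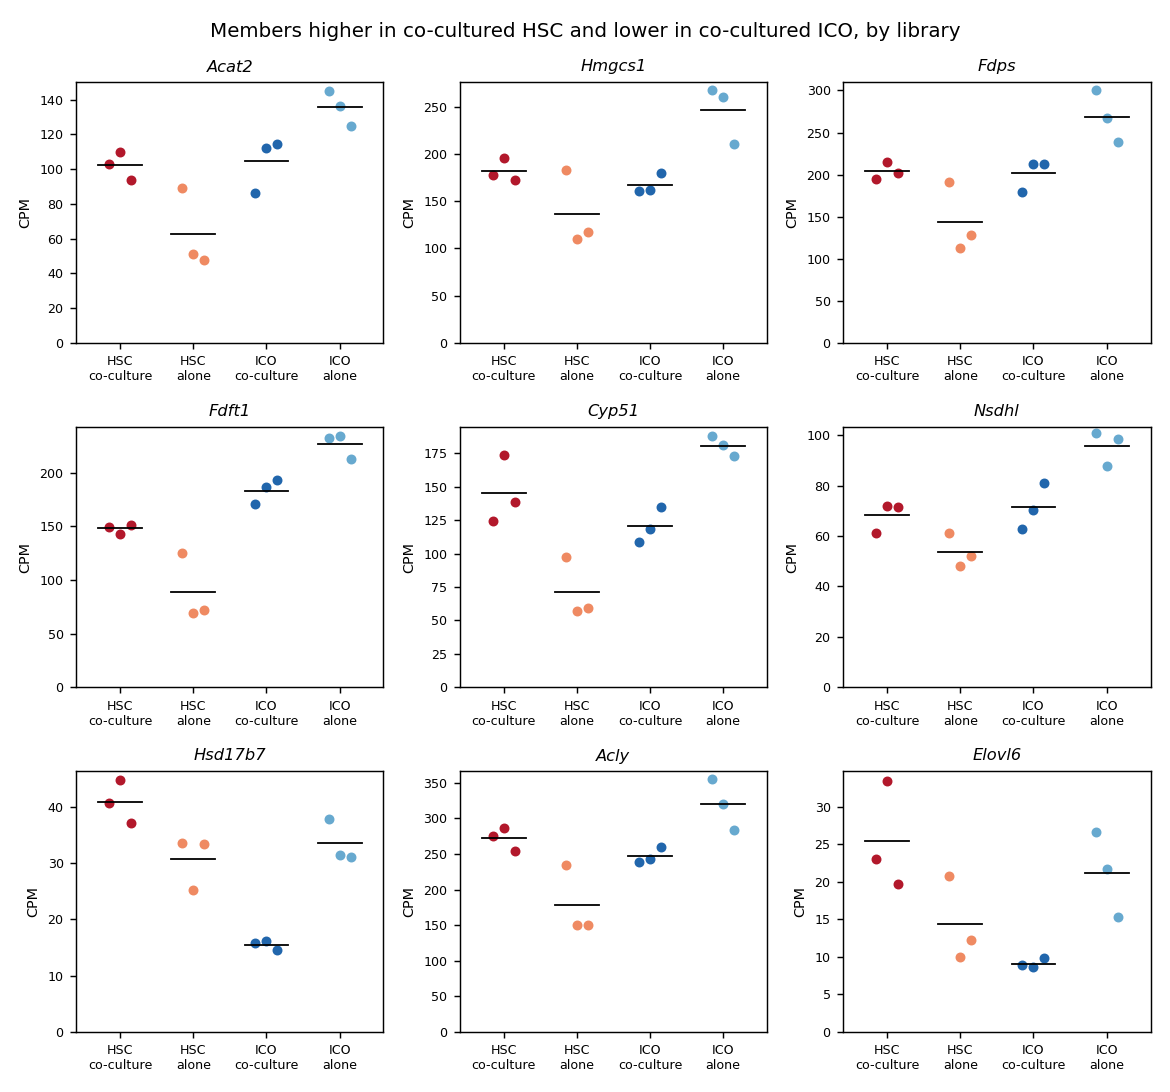
CPM in each library of the 9 members that were higher in co-cultured HSC and lower in co-cultured ICO, with bars for group means. Co-culture and alone do not overlap in ICO for any of the 9. In HSC they overlap for Hmgcs1 and Elovl6 and nearly touch for Nsdhl, at 61.2 CPM in co-culture replicate 1 and 61.1 CPM in replicate 1 alone. The 9 were chosen by their calls, and the share of all genes without overlap was not counted.

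Srebf1, Srebf2 and Insig1 were not called in either cell type or for the difference. Srebf2, the main activator of sterol genes, had 67.3, 65.7 and 82.7 CPM in co-cultured HSC, against 83.2, 65.9 and 65.1 CPM alone. In ICO it had 104, 84.0 and 99.0 CPM in co-culture, against 94.9, 95.5 and 87.2 CPM alone. Srebf1, which favours fatty acid genes, had 65.4, 105 and 109 CPM in co-cultured HSC, against 122, 76.5 and 99.1 CPM alone, and 122, 96.1 and 119 CPM in co-cultured ICO, against 109, 113 and 98.4 CPM alone. Insig1 had 69.6, 83.3 and 109 CPM in co-cultured HSC, against 108, 90.7 and 136 CPM alone, with 107, 117 and 129 CPM in co-cultured ICO, against 122, 112 and 104 CPM alone. Within each cell type the groups overlapped for all 3 genes. These are transcript levels, and the processed forms of the proteins were not measured.

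**Figure D3:**
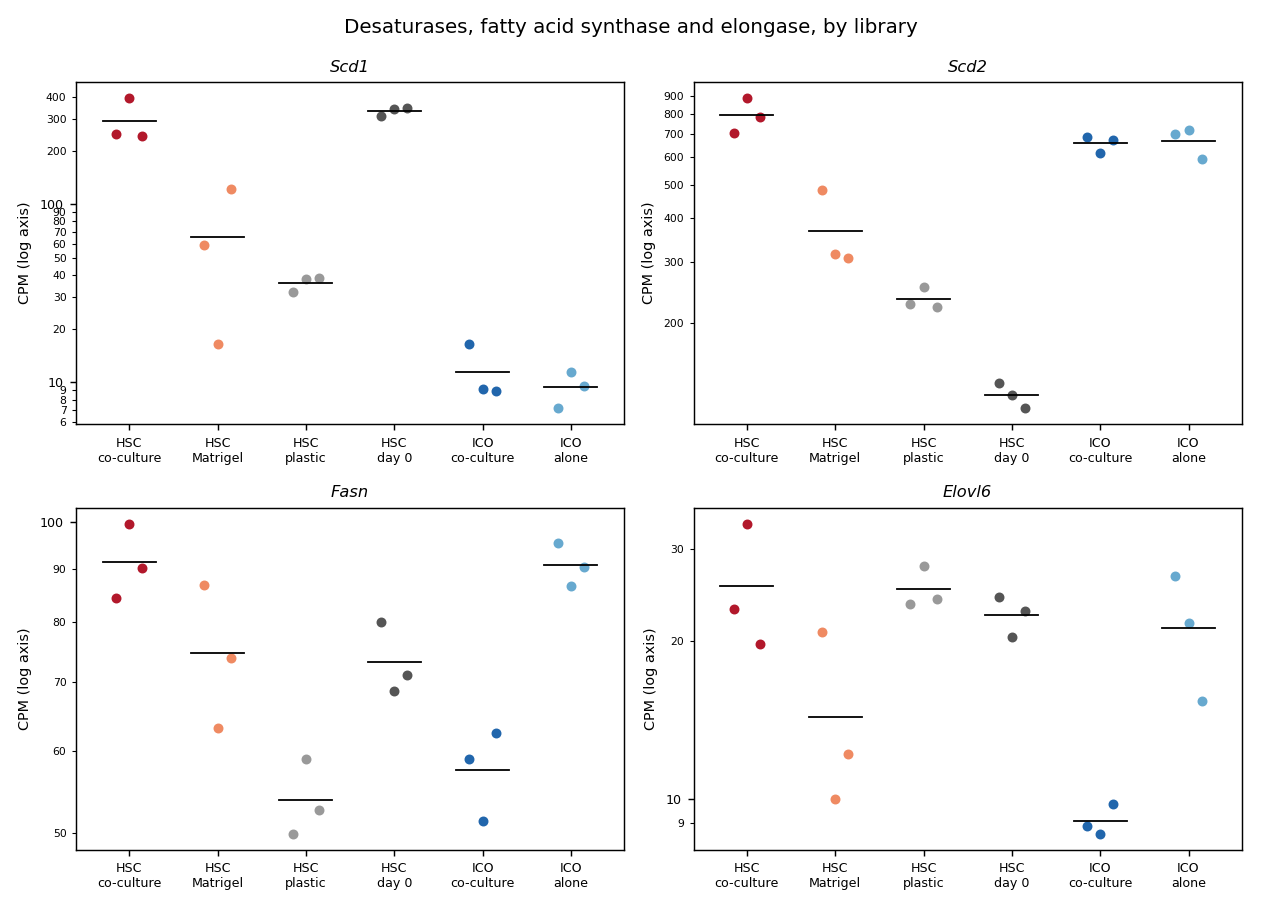
CPM on a log axis in each of the 18 libraries for Scd1, Scd2, Fasn and Elovl6, with bars for group means. Scd1 is high at day 0 and in co-cultured HSC and low in ICO, whereas Scd2 is lowest at day 0.

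HSC were next compared with day 0. On plastic 14 members rose and 9 fell, where 58% of 17020 genes were called (27.5% higher, 30.5% lower). The members' median was 0.24 against -0.10. In Matrigel 16 rose and 4 fell, where 40.8% were called (19.3% higher, 21.5% lower), with a median of 0.59 against 0.09. The mevalonate arm had 5 of 8 higher on plastic and 6 of 8 in Matrigel, and the sterol arm 7 of 11 in each. Of the 7 fatty acid enzymes 1, Scd2, was higher in each culture. These comparisons share the day 0 libraries, which carried the hepatocyte transcripts given above, and whose part in the result was not tested.

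Scd1 had 32.1, 38.0 and 38.2 CPM on plastic and 58.7, 16.4 and 122 CPM in Matrigel, against 313, 342 and 344 CPM at day 0. It fell by 3.14 ± 0.57 on plastic (adjusted p = 0.000953) and by 2.33 ± 0.55 in Matrigel (adjusted p = 0.00776), where it fell by 3.16 without Matrigel replicate 3. The Matrigel call was lost with a fit of only the 6 libraries and with the cholangiocyte share as a covariate, at an adjusted p of up to 0.0602. Scd2 had 227, 254 and 222 CPM on plastic and 482, 316 and 308 CPM in Matrigel, against 134, 124 and 113 CPM at day 0. It rose by 0.98 ± 0.16 on plastic (adjusted p = 0.000164) and by 1.57 ± 0.17 in Matrigel (adjusted p = 6.7e-06), so the paralogs changed in opposite directions.

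The sterol arm members Msmo1, a methylsterol oxidase, and Cyp51 were among the largest increases. Msmo1 had 173, 153 and 164 CPM on plastic and 188, 142 and 164 CPM in Matrigel, against 53.8, 47.1 and 59.5 CPM at day 0. It rose by 1.67 ± 0.13 and 1.63 ± 0.13 (adjusted p = 1.64e-07 and 4.33e-07). Hsd17b7 had 64.9, 58.3 and 69.5 CPM on plastic, against 16.9, 20.3 and 18.9 CPM at day 0, a rise of 1.84 ± 0.15 (adjusted p = 2.45e-07). Cyp51 had 83.0, 85.1 and 101 CPM on plastic, against 27.7, 31.9 and 29.1 CPM at day 0, a rise of 1.66 ± 0.19 (adjusted p = 6.11e-06). Mvk, mevalonate kinase, had 32.3, 37.3 and 31.2 CPM on plastic, against 11.4, 13.8 and 14.1 CPM, and rose by 1.42 ± 0.18 (adjusted p = 1.3e-05). In Matrigel Fdft1 had 126, 69.2 and 71.7 CPM, against 30.9, 28.2 and 29.2 CPM at day 0, a rise of 1.60 ± 0.19 (adjusted p = 1.82e-05). The cholangiocyte share times the ICO level came to 62.0%, 44.0% and 9.36% of these Fdft1 levels in Matrigel. Its call was kept under every alternative, with a rise as low as 1.09. Mvd, the decarboxylase, had 38.7, 27.6 and 32.8 CPM in Matrigel, against 9.89, 9.80 and 13.9 CPM, and rose by 1.56 ± 0.18 (adjusted p = 1.61e-05). None of these groups overlapped, in members picked for the size of their called change.

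Among the decreases, Tm7sf2, a sterol reductase, had 7.19, 5.67 and 5.95 CPM on plastic, against 29.5, 23.1 and 26.8 CPM at day 0. It fell by 2.01 ± 0.22 (adjusted p = 3.55e-06). Ebp, a sterol isomerase, had 44.2, 37.3 and 40.7 CPM on plastic and 45.7, 35.1 and 35.1 CPM in Matrigel, against 88.0, 84.4 and 95.9 CPM at day 0. It fell by 1.07 ± 0.14 (adjusted p = 2.33e-05) and 1.21 ± 0.14 (adjusted p = 2.05e-05). Srebf1 had 46.4, 53.1 and 53.3 CPM on plastic, against 98.6, 77.3 and 96.9 CPM, and fell by 0.77 ± 0.19 (adjusted p = 0.00357). Ggps1, which makes geranylgeranyl diphosphate, had 60.8, 53.7 and 63.2 CPM in Matrigel, against 72.4, 86.5 and 76.1 CPM at day 0. It fell by 0.40 ± 0.14 (adjusted p = 0.039), a call lost under 7 alternatives. Sc5d, a sterol desaturase, had 76.0, 71.1 and 83.2 CPM in Matrigel, against 95.9, 104 and 104 CPM, and fell by 0.39 ± 0.11 (adjusted p = 0.0103). In the cultures quoted, no group overlapped its day 0 values in these 5 genes. Tm7sf2 and Srebf1 in Matrigel did overlap day 0. The higher calls of Acat2, Hmgcs1 and Insig1 in Matrigel were lost when the cholangiocyte share was subtracted or used as a covariate, and 13 members were higher under each of these settings.

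Between the 2 cultures, 12 members were higher and 4 lower in Matrigel than on plastic, where 55% of 17020 genes were called (29.9% higher, 25.2% lower). Of the members 51.6% were called, and their median was 0.17 against 0.14. Both values were near those of all genes. Tm7sf2 had 27.4, 18.9 and 17.0 CPM in Matrigel, against 7.19, 5.67 and 5.95 CPM on plastic, a rise of 1.69 ± 0.22 (adjusted p = 2.75e-05). Srebf2 had 83.2, 65.9 and 65.1 CPM, against 27.2, 32.6 and 29.5 CPM on plastic, and rose by 1.20 ± 0.14 (adjusted p = 1.6e-05). Insig1 had 108, 90.7 and 136 CPM, against 48.5, 57.2 and 40.5 CPM on plastic, and rose by 1.14 ± 0.19 (adjusted p = 0.000251). Dhcr7, the last enzyme of the pathway, had 50.3, 41.2 and 41.2 CPM in Matrigel, against 20.2, 23.2 and 22.1 CPM on plastic, and rose by 0.96 ± 0.14 (adjusted p = 0.000102). Each was separate between the cultures.

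The 4 lower members were Hsd17b7, Elovl6, Tmem97 and Sc5d. Hsd17b7 had 33.6, 25.3 and 33.3 CPM in Matrigel, against 64.9, 58.3 and 69.5 CPM on plastic (-1.12 ± 0.14, adjusted p = 2.88e-05). Elovl6 had 20.8, 10.0 and 12.2 CPM, against 23.6, 27.8 and 24.0 CPM on plastic (-0.87 ± 0.25, adjusted p = 0.00978). Tmem97 had 58.4, 50.5 and 63.1 CPM, against 85.9, 90.7 and 92.3 CPM (-0.70 ± 0.13, adjusted p = 0.000453). Sc5d had 76.0, 71.1 and 83.2 CPM, against 117, 118 and 109 CPM (-0.64 ± 0.11, adjusted p = 0.00028). Subtracting the cholangiocyte share, or leaving out replicate 1 in Matrigel, gave 7 lower members. Higher members came to 10 after subtraction, and to 8 with the share as a covariate.

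**Figure D4:**
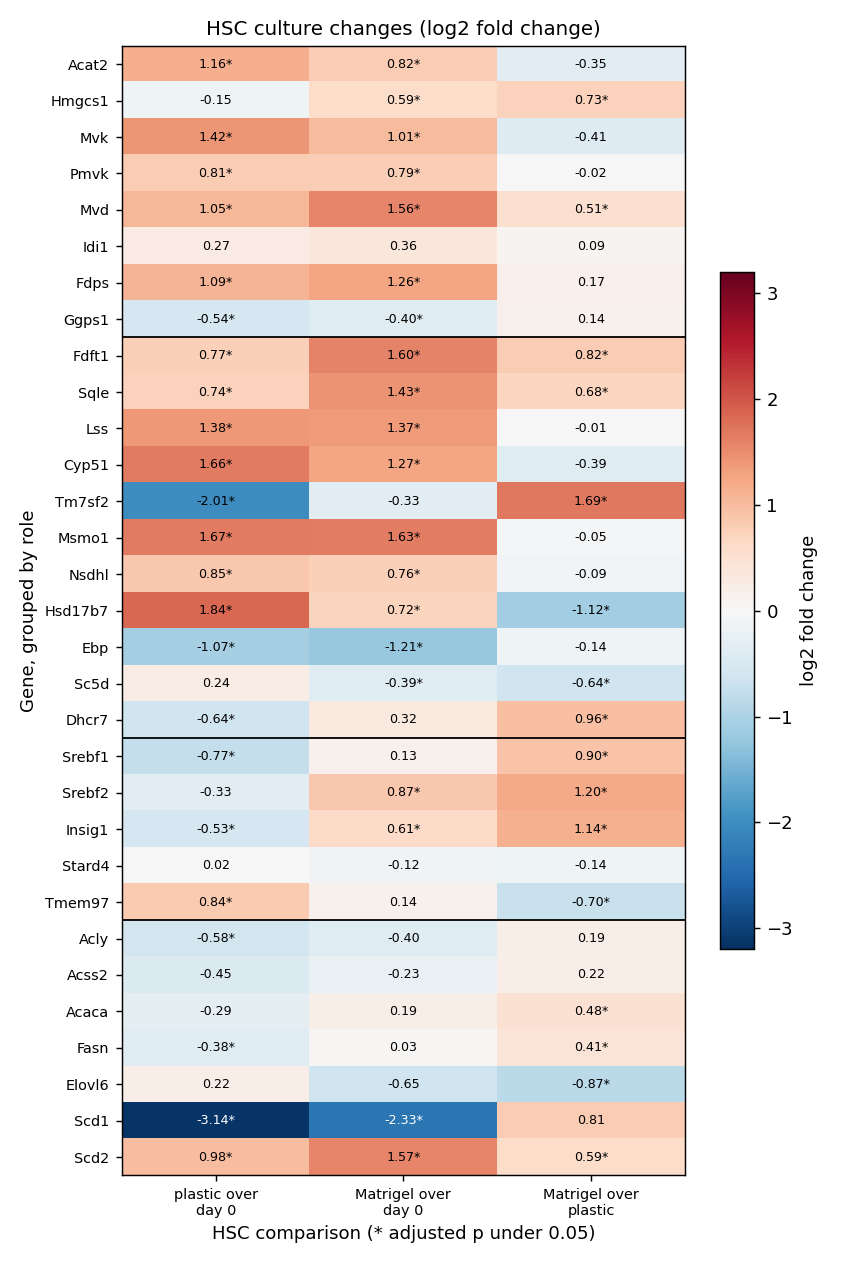
Log2 fold changes of the 31 members in HSC for plastic over day 0, Matrigel over day 0 and Matrigel over plastic, with asterisks at an adjusted p under 0.05 and lines between roles. Scd1 is the lowest cell against day 0, and the regulators Srebf1, Srebf2 and Insig1 are higher in Matrigel than on plastic.

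HSC were also set against ICO, each alone in Matrigel. In HSC 4 members were higher and 15 lower, with a median of -0.49 against 0.09 over the 16233 genes, of which 56.7% were called (30.9% higher, 25.8% lower). Scd1 had 58.7, 16.4 and 122 CPM in HSC, against 7.13, 11.4 and 9.56 CPM in ICO, and was higher by 2.88 ± 0.63 (adjusted p = 0.00392), or by 2.07 without HSC replicate 3. Acss2, which makes acetyl-CoA from acetate, had 21.9, 20.0 and 30.0 CPM in HSC, against 5.70, 6.39 and 7.05 CPM in ICO, and was higher by 1.99 ± 0.23 (adjusted p = 1.25e-05). The sterol enzymes ran the other way. Fdft1 had 126, 69.2 and 71.7 CPM in HSC, against 233, 235 and 213 CPM in ICO (-1.28 ± 0.18, adjusted p = 7.18e-05). Cyp51 had 97.8, 56.7 and 59.0 CPM in HSC, against 188, 181 and 173 CPM in ICO (-1.27 ± 0.18, adjusted p = 9.5e-05). With the cholangiocyte share subtracted, both were at -1.89. Idi1 had 160, 84.8 and 85.0 CPM, against 271, 232 and 221 CPM (-1.06 ± 0.20, adjusted p = 0.000747), and Acat2 89.3, 50.9 and 47.5 CPM, against 145, 136 and 125 CPM (-1.04 ± 0.20, adjusted p = 0.000869). Tmem97 had 58.4, 50.5 and 63.1 CPM in HSC, against 47.5, 44.7 and 40.2 CPM in ICO (0.46 ± 0.13, adjusted p = 0.00912), a call lost under 2 of 12 alternatives. Acaca had 28.0, 26.0 and 28.7 CPM in HSC, against 23.8, 23.9 and 20.4 CPM in ICO (0.36 ± 0.13, adjusted p = 0.0303), a call lost under 10 alternatives. Without ICO replicate 3, 2 members were higher. By group mean ICO alone had the highest level of 16 members, and HSC at day 0 the lowest level of 13.

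Other genes of the pathway were counted in lists by role. Of 13 tested genes of sterol synthesis and SREBP processing, 4 rose and 0 fell in co-cultured HSC, so that 30.8% were called, against 31.1% of all genes. In co-cultured ICO 1 rose and 3 fell, or 30.8%, against 16.6% of all genes. Insig2, a relative of Insig1, rose in ICO by 0.51 ± 0.12 (adjusted p = 0.00553), and Scap, the SREBP escort, was called in no comparison.

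Of 15 sterol export, esterification and LXR genes, 3 rose and 5 fell in co-cultured HSC, or 20% and 33.3%, against 17.3% and 13.8% of all genes. Of 12 tested in ICO, 1 rose and 2 fell, or 25%, against 16.6% of all genes. Ch25h, cholesterol hydroxylase, which makes an oxysterol, had 57.2, 93.3 and 64.8 CPM in co-cultured HSC, against 2.67, 1.91 and 0.616 CPM alone, and rose by 5.44 ± 0.40 (adjusted p = 8.39e-07). In ICO it had 2.23, 3.59 and 2.00 CPM in co-culture, against 12.3, 5.30 and 11.4 CPM alone, and fell by 1.92 ± 0.33 (adjusted p = 0.000651). Nr1h3, the oxysterol receptor LXR alpha, fell in co-cultured HSC by 1.90 ± 0.33 (adjusted p = 0.00072) and was at 1.02 to 2.50 CPM there, against 3.89 to 7.45 CPM alone. Macrophages also express Nr1h3, and the part of the lower macrophage marker sum was not tested. Abca1, the cholesterol exporter, had 17.1 to 26.6 CPM in co-cultured HSC and 17.1 to 31.2 CPM alone, and was not called (adjusted p = 0.8).

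Of 23 other fatty acid synthesis genes, 6 rose and 5 fell in co-cultured HSC, or 47.8%, against 31.1% of all genes. Of 19 tested in ICO 1 rose and 2 fell, or 15.8%, near the 16.6% of all genes. Fads2, a desaturase of polyunsaturated fatty acids, had 157, 187 and 152 CPM in co-cultured HSC, against 136, 108 and 134 CPM alone, and rose by 0.44 ± 0.13 (adjusted p = 0.0176). In ICO it fell by 0.61 ± 0.11 (adjusted p = 0.000948). Of 17 fatty acid oxidation genes, 14 fell on plastic and 13 fell in Matrigel relative to day 0, or 82.4% and 76.5%, against 30.5% and 21.5% of all genes. Hepatocyte markers moved with them, with a sum of at most 326 CPM in cultured HSC, against 28022 to 29042 CPM at day 0, and their part was not tested. Ehhadh, a peroxisomal oxidation enzyme, fell by 3.04 on plastic (adjusted p = 5.01e-09) and by 3.02 in Matrigel (adjusted p = 1.1e-08).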

How the data were processed

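RNA was isolated by column and made into Smart-seq2 libraries with a tagmentation kit, per the labels' protocols. The values are estimated counts, deposited by the authors for each gene. Per the submitters' processing notes, kallisto 0.46.1 and DESeq2 1.36.0 were used, with the build GRCm39, and their roles are not given. The annotation release was not given in the sources used here. The members, gene lists and comparisons were chosen with earlier results of these data known.

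Those deposited counts were rounded first, and no row lacked a gene name. Comparisons were tested with edgeR's robust quasi-likelihood test (version 4.0.16, R 4.3.3) after TMM scaling and the filterByExpr filter at its defaults, with Benjamini-Hochberg adjustment over all genes tested and a threshold of 0.05. HSC comparisons used 1 fit of the 12 HSC libraries, the ICO comparison the 6 ICO libraries, and the difference and the HSC against ICO comparison the 12 Matrigel libraries. The SE was obtained as the size of the log2 fold change over the root of its F statistic. CPM were scaled with TMM factors over all 18 libraries and given as mean ± SD over 3. The cholangiocyte share used the cholangiocyte genes that averaged at least 100 CPM in each ICO group and stayed under 5 CPM in all libraries from day 0 or plastic. Its reference, also for the subtraction, was co-cultured ICO for co-cultured HSC and ICO alone for the other HSC libraries. The test was checked on simulated counts. Over all draws, false calls came to slightly more than the threshold level for ICO co-culture and for the difference. In a first single draw they were well above that level for the difference, and the number of draws was raised after this was seen. Few small differences were recovered in the contrast for the difference. The depth per library, from 6907479 to 22158674 counts, and the 3 libraries per group limit the precision.

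For every comparison the values of all libraries are given for up to 4 called members with the largest increase and up to 4 with the largest decrease, and for Srebf1, Srebf2, Insig1, Fasn, Scd1 and Scd2 whatever their result. Of the other pathway genes, counts and a few called genes are given, and some that the rule names are not reported here. Alternatives were RLE scaling, no filter, DESeq2 1.42.0, the replicate number as a block, each library left out, only the 6 libraries compared, and, where they apply, the cholangiocyte share subtracted or added as a covariate. Same-numbered libraries did not deviate together (correlations from -0.253 to 0.0587), so the numbers were not used as pairs. Co-cultured HSC and ICO libraries share their label codes, and whether they came from the same cultures is not stated. Their correlations were 0.0363, 0.0298 and -0.00968. The interaction contrast treated them as independent.

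The reads carry no strand in this library type, and exons of some members overlap exons of other genes in the GENCODE annotation of GRCm38: Fdft1 shares 774 bases with Ctsb on the other strand, Hmgcs1 557 with an antisense gene, Idi1 323, Cyp51 166 with Akap9, Srebf1 109 with Rai1, and Fdps 1124 with a read-through gene on its own strand. Their reads, and those of Scd1 and Scd2 with their paralogs, may have been divided and are uncertain to that extent. Promoters and their coordinates are from RefSeq on GRCm38.p6, a different build from the authors'.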

Additional observations from a re-analysis of the deposited data

Results flagged for a closer look

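The co-culture effect differed between HSC and ICO for 12 members by the interaction contrast of edgeR's quasi-likelihood test, so each is listed with its difference, HSC minus ICO, in log2 units. In the mevalonate arm the difference was 1.06 for Acat2, 0.94 for Hmgcs1 and 0.89 for Fdps. In the sterol arm it was 1.02 for Fdft1, 1.59 for Cyp51, 0.74 for Nsdhl and 1.50 for Hsd17b7. Among the fatty acid enzymes it was 0.95 for Acly, 0.59 for Acaca, 0.92 for Fasn, 2.03 for Elovl6 and 1.10 for Scd2. All 12 were positive, and 9 of these were called under every alternative that was run for the difference. The exceptions were Acat2, Fdps and Acaca. The cholangiocyte shares of 15.9% to 42.1% in co-cultured HSC and 2.96% to 34.3% in HSC alone move with the HSC libraries. With those shares subtracted 14 members were called higher and 0 lower, where edgeR without subtraction called 12 and 0. The subtraction used the ICO level of the same culture, so its counts use the ICO change again and are not independent of it.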

How the results depend on the processing

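Each count was recomputed under the alternatives listed for its comparison. For ICO co-culture these leave out both uses of the cholangiocyte share and the 6-library fit, which is its own fit. The covariate was not used for the difference or for HSC against ICO, nor a smaller fit for the difference. For members called in the report no sign changed under any of them. Members higher in co-cultured HSC, 12 as reported, came to 3 with only the 6 libraries compared and to between 5 and 16 with a library left out, where lower members came to between 0 and 1. Lower members in ICO, 17 as reported, came to between 8 and 16 with a library left out. Lower members in Matrigel against plastic, 4 as reported, came to 7 after subtraction of the cholangiocyte share and to between 4 and 7 with a library left out. Higher members in HSC against ICO, 4 as reported, came to 2 without the low-count filter and to between 2 and 3 with a library left out. The difference of co-culture effects gave 9 to 16 with a library left out.

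The replicate block gave 12 higher in co-cultured HSC, 17 lower in co-cultured ICO, 11 for the difference, 14 and 9 for plastic, 16 and 3 for Matrigel against day 0, 12 and 4 for Matrigel against plastic, and 3 and 15 for HSC against ICO (higher, then lower). RLE scaling moved no median over all genes by more than 0.1.

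Values by setting were first tabulated for all 31 members and then, with results seen, for the called members and the genes the rule names whatever their result. Over all 31, 98 of 2821 values changed sign, 0 of them in a called member, and the 70 in members with no values of their own here started within 0.356 of 0. The listed reversals follow, all in uncalled genes or medians except Ppargc1a; the cause was not tested. Matrigel against day 0: Fasn was -0.0093 with RLE, -0.025 without filter, -0.0090 with DESeq2 and -0.021 with the share as covariate; Scap -0.017 without filter and -0.018 with the covariate; Srebf1 -0.0087 with the covariate. Matrigel against plastic: Ppargc1a was -1.93 after subtraction, and the member median -0.0048 with the covariate. HSC co-culture: Srebf2 was -0.059 after subtraction, -0.029 with 6 libraries and -0.079 with the covariate; Insig2 -0.22 and Abca1 0.14 after subtraction, Abca1 0.18 with the covariate. ICO co-culture: Abca1 was -0.032 with the replicate block. Difference: Abca1 was 0.030 after subtraction. HSC against ICO: Insig1 was -0.012 without filter and -0.041 after subtraction. With a library left out, ranges were, for Matrigel against day 0, Srebf1 -0.040 to 0.29, Fasn -0.086 to 0.14 and Scap -0.056 to 0.12. For Matrigel against plastic they were Scd1 -0.053 to 1.27 and the member median -0.060 to 0.29. For HSC co-culture they were Srebf1 -0.20 to 0.15, Srebf2 -0.045 to 0.18 and Abca1 -0.30 to 0.18. For ICO co-culture they were Abca1 -0.51 to 0.53, Scd2 -0.12 to 0.011, Insig1 -0.019 to 0.11, Srebf2 -0.027 to 0.11, Scd1 -0.064 to 0.44, Scap -0.16 to 0.0065 and Nr1h3 -0.74 to 0.069. For the difference they were Srebf2 -0.17 to 0.069 and Abca1 -0.75 to 0.31. For HSC against ICO they were Srebf1 -0.23 to 0.11 and Insig1 -0.10 to 0.17.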
